A study of Mus musculus with 12 samples.

Results

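Integrins are adhesion receptors built from an alpha and a beta chain, and 10 genes that encode such chains in macrophages were followed here across mouse large peritoneal macrophages. They were found by gene symbol among the 57010 genes of the deposited count table, and all 10 were present and passed the filter on low counts. They comprised Itgam, Itgax, Itgal and Itgb2 of the beta2 family, Itga4, Itga6 and Itgb1 of the beta1 family, and Itgav with its partners Itgb3 and Itgb5. The cells were F4/80-high, MHC class II-low macrophages from the peritoneal cavity of female mice, either wild type (WT) or Tim4KO, knockouts of the phosphatidylserine receptor Tim4 whose allele the labels do not describe further. Naive mice received no tumour cells. Challenged mice, 8 weeks old, were given ID8ZGO cells, an ID8 mouse ovarian tumour line made to express ZsGreen and OVA, by intraperitoneal injection, and 24 h later only the macrophages that carried ZsGreen were sorted. Each of the 4 groups, called naive or ID8 within a genotype, held 3 libraries. The naive groups were not sorted on ZsGreen, so challenge and uptake of tumour material cannot be told apart. The labels do not say whether the libraries of a group came from separate mice, so p-values measure the spread between these samples.

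Talin and kindlin bind the beta tail and shift an integrin to its active form, which then links its ligand to actin. The beta2 integrins are the leukocyte integrins: Itgam with Itgb2 makes Mac-1, the CD11b that marks peritoneal macrophages and binds complement iC3b, fibrinogen and ICAM1. The beta1 integrins bind matrix (alpha6 binds laminin) or VCAM1 and fibronectin (alpha4). The alphav integrins bind RGD motifs in vitronectin, osteopontin and MFGE8, and alphavbeta3 and alphavbeta5 are known as receptors for dying cells that MFGE8 has coated.

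Total counts per library ran from 7358559 to 23170244. Timd4, which encodes Tim4, had 20 to 128 counts in each Tim4KO library and 9685 to 21320 in each WT library. Among markers of large peritoneal macrophages, Adgre1 (F4/80) was high in every group, at 2569 to 6299 CPM (counts scaled to library size, with TMM factors). Gata6 stood at 120 to 194 and Icam2 at 617 to 1485 CPM. The means of these genes were higher after challenge. Adgre1 went from 3157 to 4747 CPM in WT and from 3362 to 4343 CPM in Tim4KO. Icam2 went from 750 to 1065 and from 724 to 1347 CPM, and Gata6 from 159 to 179 and from 136 to 167 CPM. H2-Aa, of MHC class II, stood at 8.75 to 82.0 CPM. The 11 markers of these macrophages together summed to less after challenge, 16596 to 19369 against 21341 to 26708 CPM in WT and 18779 to 19820 against 22670 to 25752 CPM in Tim4KO. This was mainly through Alox15, whose mean went from 11294 to 5493 CPM in WT and from 11266 to 7684 CPM in Tim4KO. Lower means were also seen for Prg4 (3651 to 2405 and 3886 to 2613 CPM), Ltbp1 (1711 to 987 and 2126.5 to 1248 CPM), F5 (1225 to 672 and 1541 to 788 CPM) and Tgfb2 (594 to 328 and 638 to 419 CPM). Of the 11, 2 were called higher and 4 lower in WT, and 2 and 5 in Tim4KO. Over all tested genes 19.5% were called higher and 12.3% lower in WT, and 11.5% and 5.06% in Tim4KO. B cell markers were also lower in the ID8 libraries, at 4.04 to 9.55 against 9.74 to 27.3 CPM over both genotypes. Reads in olfactory and vomeronasal receptor genes, taken as a measure of background, summed to 259 to 814 CPM in the naive libraries and to 5.89 to 347 CPM in the ID8 libraries. WT ID8 3 stood apart: it was the deepest library, had the lowest background, and differed most from the other 2 of its group. Results that turn on it are given with and without it.

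Promoters from 250 bases before to 50 after the start of the gene (RefSeq, GRCm38.p6) were at hand for 6 of the 10 members, namely Itgam, Itgax, Itga4, Itgb1, Itgav and Itgb5. The 4 printed here belong to the members of these 6 that were called higher after challenge in WT cells. All lie on the plus strand: Itgam at chr7:128062390-128062689, Itgb1 at chr8:128685404-128685703, Itgav at chr2:83724147-83724446 and Itgb5 at chr16:33829415-33829714. Capitals mark matches on either strand to GAGGAA, the core that the macrophage lineage factor PU.1 binds, or to the GC box, which reads GGGCGG and is bound by Sp and KLF proteins. The AP-1 motif was searched as TGACTCA on both strands. The GATA motif was searched as AGATAA in the same way, and the RUNX motif was searched as TGTGGT.
Itgam: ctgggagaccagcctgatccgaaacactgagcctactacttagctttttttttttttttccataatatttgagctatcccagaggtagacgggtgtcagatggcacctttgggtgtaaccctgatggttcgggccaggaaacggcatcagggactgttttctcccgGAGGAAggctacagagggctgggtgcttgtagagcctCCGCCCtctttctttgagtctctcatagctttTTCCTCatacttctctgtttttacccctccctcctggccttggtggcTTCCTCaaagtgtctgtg
Itgb1: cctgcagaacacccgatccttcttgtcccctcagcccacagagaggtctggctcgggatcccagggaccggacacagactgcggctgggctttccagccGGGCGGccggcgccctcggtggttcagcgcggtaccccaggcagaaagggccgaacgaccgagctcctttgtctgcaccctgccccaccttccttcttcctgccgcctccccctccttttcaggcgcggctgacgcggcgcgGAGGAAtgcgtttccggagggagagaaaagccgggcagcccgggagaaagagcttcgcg
Itgav: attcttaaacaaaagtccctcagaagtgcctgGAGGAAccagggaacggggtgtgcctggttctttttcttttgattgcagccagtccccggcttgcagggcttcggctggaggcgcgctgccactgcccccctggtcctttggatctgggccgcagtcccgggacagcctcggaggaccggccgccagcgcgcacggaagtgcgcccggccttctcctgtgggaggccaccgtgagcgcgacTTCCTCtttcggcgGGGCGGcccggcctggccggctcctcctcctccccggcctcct
Itgb5: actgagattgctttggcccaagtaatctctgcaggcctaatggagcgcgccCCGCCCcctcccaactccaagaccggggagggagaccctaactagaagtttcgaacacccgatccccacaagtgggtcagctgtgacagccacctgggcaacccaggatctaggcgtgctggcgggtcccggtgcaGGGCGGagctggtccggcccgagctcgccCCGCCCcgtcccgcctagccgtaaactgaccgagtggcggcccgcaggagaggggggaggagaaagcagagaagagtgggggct
Itgam held 3 copies of GAGGAA, 1 on the plus strand starting at -84 and 2 on the minus strand at -15 and 33, counted from the start with no base 0. Itgav held 2 copies, Itgb1 1 and Itgb5 none, while 28.3% of the 32851 promoters in the table held at least 1. Itgb5 held 3 GC boxes, and Itgam, Itgb1 and Itgav 1 each, against 35.7% of all promoters with any. None of the 4 held the AP-1, GATA or RUNX letters, which 5.2%, 11.2% and 16.8% of all promoters held. Among the promoters not printed, Itgax held 1 match to each of these motifs, and Itga4 held 1 to RUNX and none to AP-1 or GATA. Neither of these promoters held GAGGAA, and Itga4 held 1 GC box and Itgax none. The matches describe these letters only.

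Levels of different genes were compared as TMM CPM per kb of exon. The mean over all 12 libraries ran from 765 for Itgb2, above 99.7% of tested genes, through 483 for Itgb1, 327 for Itgam and 248 for Itga6. After a wide gap came Itga4 at 12.3, Itgav at 7.05, Itgb3 at 2.75, Itgal at 1.60, Itgb5 at 1.50 and Itgax at 0.127. The most abundant of these transcripts were thus those of alphaMbeta2 and alpha6beta1. Itgam and Itga6 overlapped in both naive groups, and Itgal and Itgb5 overlapped in 3 of the 4 groups but not in Tim4KO ID8, where Itgal was the higher. Itgb3 lay above Itgal in every naive library and below it in every ID8 library of both genotypes, although their ranges overlapped in WT ID8. With the longest transcript as length in place of all exons, Itga6 stood at 519 and passed Itgam at 351 and Itgb1 at 517. Among the alpha chains of the beta2 family, Itgam gave 99.2% to 99.8% of the summed per-length level of Itgam, Itgax and Itgal in each library.

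**Figure D1:**
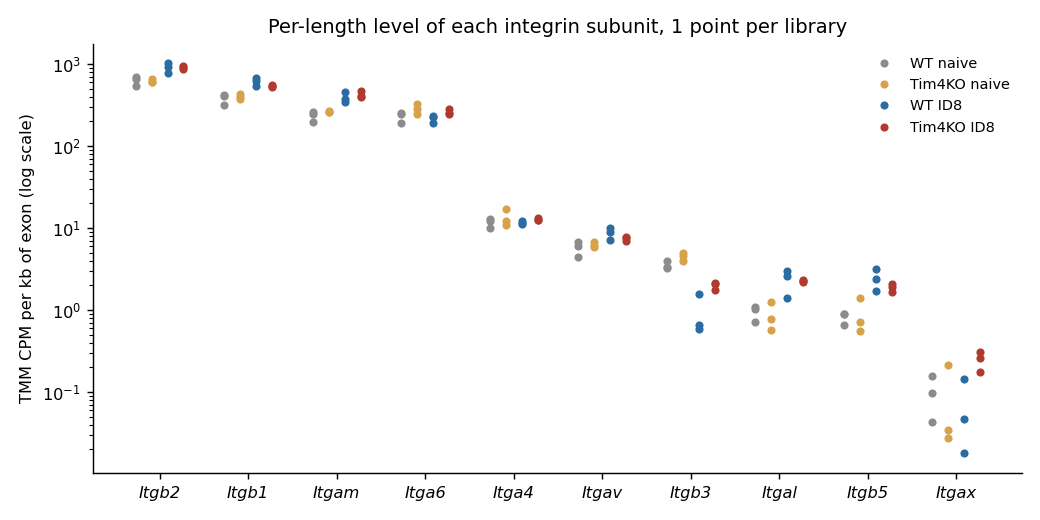
TMM CPM per kb of exon on a log axis, 1 point per library, for the 10 integrin chains ordered by their mean. Itgb2, Itgb1, Itgam and Itga6 lie above 100 in every library and the other chains below 20; Itgb3 drops and Itgal and Itgb5 climb in the ID8 groups.

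Most of the chains were higher after challenge, and the same ones were called in both genotypes with 1 exception. In WT cells 7 of the 10 members were called, 6 higher (Itgam, Itgal, Itgb2, Itgb1, Itgav and Itgb5) and 1 lower (Itgb3), where 31.8% of the 15943 tested genes were called, 19.5% higher and 12.3% lower. In Tim4KO cells 6 were called, 5 higher and Itgb3 lower, where 16.6% of tested genes were called, 11.5% higher and 5.06% lower. Itgav was the member called in WT cells alone, and the difference between the genotypes was not called for it (interaction adjusted p = 0.714, edgeR). The median log2 fold change of the 10 members was 0.55 in WT and 0.49 in Tim4KO, beside -0.04 and -0.05 over all tested genes. The same 7 members did not overlap between naive and ID8 in either genotype, against 44.4% of tested genes in WT (23.3% higher, 21% lower) and 41.9% in Tim4KO (23.7% higher, 18.1% lower). Itga4, Itga6 and Itgax were not called in either. Upper-quartile scaling moved the median of all genes to -0.28 in WT and -0.17 in Tim4KO and turned the split of all calls from 3105 higher and 1962 lower to 1799 and 3508 in WT, and from 1836 and 806 to 1322 and 1394 in Tim4KO. Under that scaling the WT calls of Itgb2 and Itgav and the Tim4KO calls of Itgb1 and Itgb5 were lost. Less the median of all genes, their log2 fold changes were 0.56, 0.62, 0.49 and 1.07, beside 0.56, 0.62, 0.49 and 1.09 with TMM scaling.

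**Figure D2:**
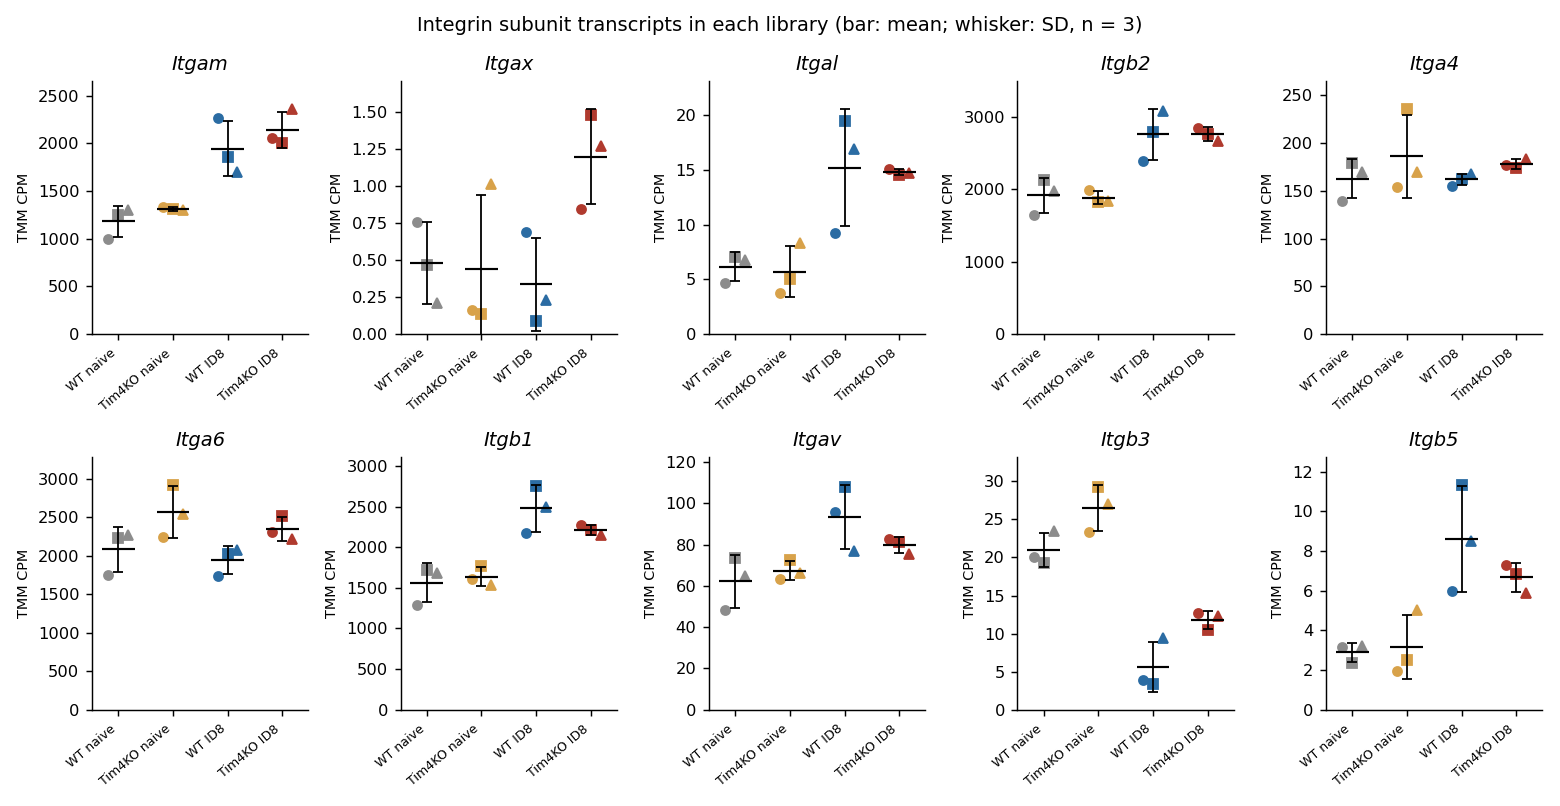
TMM CPM of each member in each library (circle, square and triangle are libraries 1, 2 and 3 of a group; bar, mean; whisker, SD, n = 3). Itgam, Itgal, Itgb2, Itgb1, Itgav and Itgb5 lie higher and Itgb3 lower in the ID8 libraries of each genotype, without overlap, whereas Itga4 and Itga6 overlap.

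Itgam, the alpha chain of Mac-1, measured 994, 1249 and 1299 CPM in WT naive and 2265, 1862 and 1705 CPM in WT ID8. In Tim4KO cells it measured 1334, 1309 and 1297 CPM when naive and 2061, 2003 and 2360 CPM after challenge. Every ID8 library lay above every naive one. The log2 fold change was 0.72 (SE 0.14, adjusted p = 0.00168, edgeR), or 1.65-fold, in WT and 0.71 (SE 0.14, adjusted p = 0.00364, edgeR) in Tim4KO. The gene model Gm49368 shares 68.7% of the exonic bases of Itgam on the same strand and held 1 to 11 counts per library, so how reads were split between them is uncertain.

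Itgb2, the shared beta2 chain, went from 1652, 2124 and 1977 CPM in WT naive to 2397, 2798 and 3093 CPM in WT ID8. The Tim4KO libraries went from 1993, 1828 and 1837 CPM to 2855, 2773 and 2673 CPM. The groups did not overlap, and the log2 fold changes were 0.53 (SE 0.13, adjusted p = 0.00806, edgeR) in WT and 0.55 (SE 0.13, adjusted p = 0.0108, edgeR) in Tim4KO. The WT call was lost with upper-quartile scaling (0.29, adjusted p = 0.0561), in a fit of the 2 groups alone (0.43, adjusted p = 0.0765) and with background as a covariate (0.33, adjusted p = 0.157), out of alternatives that ran from 0.000412 to 0.157. The Tim4KO call was lost, at adjusted p from 0.0520 to 0.0631 and a log2 fold change from 0.55 to 0.59, without Tim4KO naive 2 or 3 or Tim4KO ID8 1 or 2.

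Itgal, the alpha chain of LFA-1, which binds ICAMs, was a minor transcript with 38 to 371 counts per library. It measured 4.66, 7.08 and 6.78 CPM in WT naive and 9.21, 19.5 and 16.9 CPM in WT ID8. Tim4KO libraries held 3.77, 5.06 and 8.28 CPM when naive and 15.1, 14.6 and 14.8 CPM after challenge. It rose by 1.30 (SE 0.30, adjusted p = 0.00456, edgeR) on the log2 scale in WT and by 1.36 (SE 0.30, adjusted p = 0.00653, edgeR) in Tim4KO. With background as a covariate the WT value was 1.03 (adjusted p = 0.0568, with other alternatives down to 1.01e-07). LFA-1 is also abundant in neutrophils and lymphocytes. The 10 neutrophil markers summed to 8.75 to 9.22 CPM in naive and 12 to 32.2 CPM in challenged WT cells, and to 9.19 to 11.2 CPM in naive and 22.9 to 33.9 CPM in challenged Tim4KO cells. Of the 5 that were tested, 3 were called higher in WT and 2 in Tim4KO, where 19.5% and 11.5% of all tested genes were. Ly6g, which defines neutrophils, stayed at or below 0.231 CPM in every library. S100a8, S100a9, Retnlg and Cxcr2 had higher means after challenge in both genotypes. S100a8 went from 5.53 to 17.96 CPM in WT and from 6.14 to 15.88 CPM in Tim4KO. Retnlg went from 0.238 to 2.11 CPM in WT and from 0.79 to 8.69 CPM in Tim4KO. Mpo, Camp, Ngp and Elane had lower means in both genotypes. The means of Ly6g and Mmp8 were lower in WT and higher in Tim4KO. The 10 T and NK cell markers summed to 6.34 to 9.21 CPM in naive and to less, 4.20 to 6.33 CPM, in challenged WT cells, and overlapped in Tim4KO cells at 4.26 to 7.30 CPM when naive and 4.26 to 10.1 CPM after challenge. The part of such cells in the rise of Itgal was not tested. In RNA from sorted bulk cells, more cells of a type and more RNA per cell cannot be told apart.

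Itgax encodes CD11c, a marker of dendritic cells and of many tissue macrophages. It held 7, 7 and 3 counts in naive and 6, 1 and 5 in challenged WT libraries, against 2, 1 and 18 in naive and 11, 16 and 22 in challenged Tim4KO libraries, so 4 libraries were at or under 3 counts, the lowest level told from 0. Its naive and ID8 groups overlapped in both genotypes, and neither challenge comparison was called (adjusted p = 0.640 in WT and 0.313 in Tim4KO, edgeR). The 10 markers of small peritoneal macrophages and dendritic cells summed to 302 to 568 CPM in naive and 141 to 447 CPM in challenged WT cells, and to 340 to 443 and 316 to 393 CPM in Tim4KO cells, and their part in the Itgax counts was not tested.

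Itgb1, the shared beta1 chain, measured 1286, 1719 and 1682 CPM in WT naive and 2179, 2757 and 2500 CPM in WT ID8. In Tim4KO cells it measured 1612, 1765 and 1532 CPM when naive and 2275, 2212 and 2152 CPM after challenge. All ID8 libraries lay above all naive ones. The log2 fold change was 0.67 (SE 0.14, adjusted p = 0.00247, edgeR) in WT and fell to 0.42 under upper-quartile scaling, where it was still called. In Tim4KO it was 0.44 (SE 0.14, adjusted p = 0.0428, edgeR). That call was lost with RLE scaling (0.39, adjusted p = 0.0631), upper-quartile scaling (0.32, adjusted p = 0.0603) and the background covariate (0.40, adjusted p = 0.0555), with alternatives from 0.0146 to 0.0631. It was also lost without WT naive 2 or 3, or without any 1 of the 6 Tim4KO libraries (0.40 to 0.51, adjusted p from 0.0578 to 0.177).

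Itga6, the laminin-binding partner of beta1, did not follow it. Its level was 1744, 2235 and 2268 CPM in WT naive against 1740, 2027 and 2074 CPM in WT ID8, and 2241, 2920 and 2547 CPM in Tim4KO naive against 2305, 2522 and 2218 CPM in Tim4KO ID8. The groups overlapped, with log2 fold changes of -0.10 (SE 0.14, 95% interval -0.40 to 0.21) and -0.13 (SE 0.14, 95% interval -0.43 to 0.17). The ratio of Itga6 to Itgb1 per length was lower after challenge, going from 0.604 ± 0.014 to 0.356 ± 0.022 in WT and from 0.710 ± 0.070 to 0.480 ± 0.031 in Tim4KO (SD, n = 3), without overlap and with no test. In both conditions every Tim4KO library had a higher ratio than every WT library, at 0.629 to 0.752 against 0.588 to 0.613 when naive and 0.458 to 0.516 against 0.332 to 0.375 after challenge. Other ratios separated the genotypes in a single condition. Itgam to Itgb2 was higher in Tim4KO naive (0.406 to 0.435 against 0.357 to 0.399). In ID8 cells Itga4 to Itgb1 was higher in Tim4KO and Itgb1 to Itgb2 lower. Of single tested genes, 14.2% separated the genotypes when naive and 15.6% after challenge.

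Itga4, which pairs with beta1 or beta7 to bind VCAM1 and fibronectin, measured 140, 179 and 170 CPM in WT naive and 155, 162 and 168 CPM in WT ID8. It measured 154, 236 and 170 CPM in Tim4KO naive and 177, 174 and 184 CPM in Tim4KO ID8. Neither challenge comparison was called, at -0.01 (SE 0.15, 95% interval -0.33 to 0.31) in WT and -0.06 (SE 0.15, 95% interval -0.38 to 0.26) in Tim4KO. Per length there was little Itga4 beside Itgb1, with a ratio of 0.0305 ± 0.0011 in naive and 0.0192 ± 0.0018 in challenged WT cells, and 0.0331 ± 0.0056 and 0.0235 ± 0.0012 in Tim4KO cells (SD, n = 3). Cerkl overlaps 8.04% of the Itga4 exons on the other strand and held 22 to 76 counts per library, and whether the counting used strand is not given in the sources used here.

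The beta chains that pair with alphav moved in opposite directions. Itgb3 measured 20.0, 19.3 and 23.5 CPM in WT naive and 3.91, 3.44 and 9.35 CPM in WT ID8. Tim4KO cells held 23.3, 29.3 and 27.0 CPM of it when naive and 12.7, 10.4 and 12.3 CPM after challenge. Every ID8 library was below every naive one, and WT ID8 3 was the highest of its group. Itgb3 fell by 1.86 (SE 0.29, adjusted p = 0.000367, edgeR) on the log2 scale in WT, or 3.63-fold, and by 1.16 (SE 0.28, adjusted p = 0.0109, edgeR) in Tim4KO. Without WT ID8 3 the WT value was -2.49 and with background as a covariate -2.65. The Tim4KO call was lost without Tim4KO naive 2 (-1.07, adjusted p = 0.0529), Tim4KO naive 3 (-1.14, adjusted p = 0.0515) or Tim4KO ID8 2 (-1.05, adjusted p = 0.0750). Platelets carry much beta3, and the platelet list was high through Pf4 alone, which measured 1547 to 3120 CPM. Of the other 9 markers of that list, Gp1bb was at 0 in every library, Gp1ba, Gp9, Gp5, Gp6 and Ppbp stayed at or below 1.0 CPM, and Itga2b, the platelet partner of beta3, at or below 1.33 CPM. Treml1 reached at most 0.345 CPM and Clec1b, which myeloid cells can also express, 5.17 CPM. The whole list summed to 2043 to 2172 CPM in naive and 2394 to 3122 CPM in challenged WT cells, and to 1552 to 2121 and 2563 to 2593 CPM in Tim4KO cells, and that sum follows Pf4. Most of the rarer markers had lower means after challenge. Itga2b was at 1.18 and 0.487 CPM, Gp1ba at 0.677 and 0.149 CPM and Clec1b at 4.26 and 1.96 CPM in naive and challenged WT cells. Ppbp went the other way there, at 0.141 and 0.178 CPM, and several of these values were near the lowest level told from 0. In Tim4KO cells the means were 0.838 and 0.690 CPM for Itga2b, 0.386 and 0.229 CPM for Gp1ba and 1.96 and 1.34 CPM for Clec1b. Background was lower after challenge in WT too, at 316 to 814 CPM in naive and 5.89 to 245 CPM in ID8 libraries. It overlapped in Tim4KO, at 259 to 435 and 41.0 to 347 CPM. The part of platelets in the Itgb3 values was not tested.

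Itgb5, the other alphav partner, held 19 to 186 counts per library. It measured 3.14, 2.34 and 3.21 CPM in WT naive and 5.98, 11.3 and 8.49 CPM in WT ID8. In Tim4KO cells it measured 1.97, 2.53 and 5.01 CPM when naive and 7.30, 6.83 and 5.88 CPM after challenge. The groups did not overlap, although Tim4KO naive 3 came close to the ID8 libraries. Itgb5 rose by 1.58 (SE 0.33, adjusted p = 0.00235, edgeR) on the log2 scale in WT, or 2.99-fold, and by 1.03 (SE 0.32, adjusted p = 0.0406, edgeR) in Tim4KO. The Tim4KO call was lost with RLE scaling (0.98, adjusted p = 0.0539), upper-quartile scaling (0.90, adjusted p = 0.0775) and limma voom (1.02, adjusted p = 0.0545), with alternatives from 0.0108 to 0.0775. It was lost as well without WT naive 1, Tim4KO naive 1 or 2, or any 1 of the Tim4KO ID8 libraries (0.79 to 1.14, adjusted p from 0.0511 to 0.145), and reached 1.59 without Tim4KO naive 3. Epithelial and tumour cells can carry beta5 and alpha6beta1. The 12 epithelial, mesothelial and tumour markers summed to 5.81 to 25.7 CPM in naive and 1.60 to 4.83 CPM in challenged WT cells, and to 7.30 to 9.29 and 2.0 to 6.0 CPM in Tim4KO cells. Background ran from 259 to 814 CPM in naive and from 5.89 to 347 CPM in ID8 libraries, and the part of such cells in the Itgb5 values was not tested.

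Itgav itself measured 48.3, 73.5 and 65.0 CPM in WT naive and 95.8, 108 and 77.1 CPM in WT ID8. The Tim4KO values were 63.6, 72.6 and 66.1 CPM when naive and 82.9, 81.4 and 75.4 CPM after challenge. It rose by 0.58 (SE 0.16, adjusted p = 0.0118, edgeR) on the log2 scale in WT, and in Tim4KO the value was 0.25 (SE 0.16, adjusted p = 0.319, edgeR) with no overlap between the groups. The WT call was lost with upper-quartile scaling (0.35, adjusted p = 0.0649), with the 2 groups alone (0.49, adjusted p = 0.0646) and without WT naive 1 (0.44, adjusted p = 0.0541), with alternatives from 0.000949 to 0.0649. Gm13684 overlaps 5.9% of the Itgav exons on the other strand and held 0 to 17 counts per library.

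The mean ratio of each beta chain to alphav differed between naive and challenged cells, with no test. Itgb3 stood at 0.630 ± 0.140 of Itgav per length in WT naive and at 0.118 ± 0.090 in WT ID8, and at 0.715 ± 0.042 in Tim4KO naive and 0.269 ± 0.033 in Tim4KO ID8 (SD, n = 3). Itgb5 stood at 0.147 ± 0.050 and 0.280 ± 0.079 in WT, and at 0.143 ± 0.075 and 0.252 ± 0.015 in Tim4KO. Its naive and ID8 ratios overlapped in WT, at 0.0962 to 0.197 and 0.189 to 0.333, but not in Tim4KO. In each naive library Itgb3 exceeded Itgb5, and in each WT ID8 library Itgb5 exceeded Itgb3. In Tim4KO ID8 the chains were near each other, with Itgb3 at 0.279, 0.233 and 0.296 and Itgb5 at 0.266, 0.254 and 0.236 in libraries 1, 2 and 3. The ratio of Itgb3 to Itgav did not overlap between the ID8 groups, with 0.233 as the lowest Tim4KO and 0.221 as the highest WT value.

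**Figure D3:**
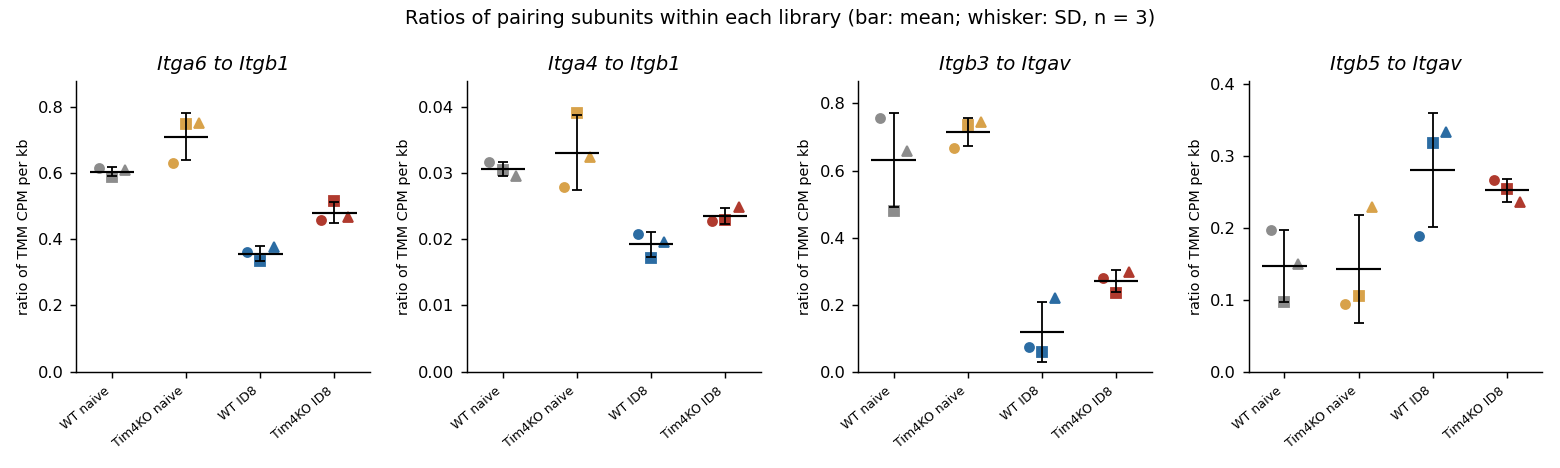
Ratio of per-length levels of chains that pair, within each library (circle, square and triangle are libraries 1, 2 and 3; bar, mean; whisker, SD, n = 3). Itga6 and Itga4 relative to Itgb1, and Itgb3 relative to Itgav, are lower in ID8 than in naive libraries without overlap; Itgb5 relative to Itgav is higher on average but overlaps in WT.

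Between the genotypes 0 of the 10 members were called, in naive cells or after challenge (edgeR). The share of all tested genes called was 0.0439% in naive cells (0.0251% higher and 0.0188% lower) and 0.0565% in ID8 cells (0.00627% higher and 0.0502% lower). At an unadjusted p under 0.05 in edgeR there were 0 members in naive cells and 2 in ID8 cells, Itgb3 and Itgax. Of all tested genes, 6.27% in naive cells and 12.1% in ID8 cells were under it. DESeq2 and limma voom called 0 members in both. No member separated the genotypes without overlap in naive cells, where 14.2% of tested genes did (7.34% higher and 6.84% lower). In ID8 cells 4 did, Itgb3, Itgax, Itga4 and Itga6, all higher in Tim4KO, against 15.6% of tested genes in either direction, 7.06% higher and 8.56% lower. The smallest p among the members was that of Itgb3, with 10.4 to 12.7 CPM in Tim4KO ID8 and 3.44 to 9.35 CPM in WT ID8, a log2 difference of 1.03 (SE 0.29, 95% interval 0.42 to 1.65, adjusted p = 0.210, edgeR). It was called without the filter on low counts (0.97, adjusted p = 0.00341), with background as a covariate (1.52, adjusted p = 0.00600) and without WT ID8 3 (1.69, adjusted p = 3.09e-05). Across the other settings its adjusted p reached 0.396, and with 1 library left out 0.704. Background stood at 245, 85.9 and 5.89 CPM in WT ID8 and at 41.0, 347 and 282 CPM in Tim4KO ID8, and its part in this difference was tested only through that covariate.

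No other member was called between the genotypes under any setting run. Itga6 was 0.30 higher on the log2 scale in Tim4KO naive (SE 0.14, adjusted p = 0.787, edgeR) and 0.27 higher in Tim4KO ID8 (SE 0.14, adjusted p = 0.453, edgeR). Itgax differed by 1.92 in ID8 cells (SE 0.86, adjusted p = 0.392, edgeR), from 12 counts in WT against 49 in Tim4KO. For Itgam, Itgb2 and Itgb1 the 95% interval of the difference in ID8 cells ran from -0.16 to 0.44, from -0.28 to 0.28 and from -0.46 to 0.13. The interaction, the Tim4KO response less the WT response, called 0 members and 0 of all tested genes (0%). At an unadjusted p under 0.05 in edgeR there were 0 members, beside 7.44% of all tested genes. DESeq2 and limma voom called 0 members. For Itgb3 the interaction was 0.69 (SE 0.39, adjusted p = 0.697), reached 1.35 (adjusted p = 0.00631) once WT ID8 3 was left out, and was not called under any other setting, at adjusted p from 0.147 to 1. The genotype and challenge comparisons share these libraries, so their values are not independent.

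**Figure D4:**
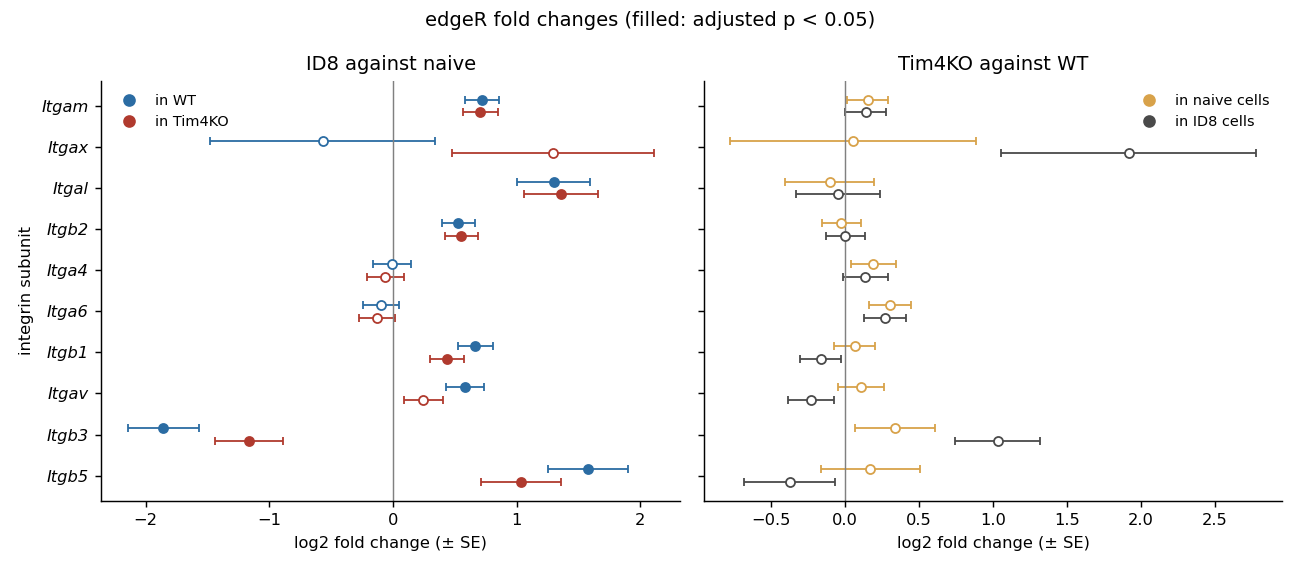
Log2 fold change with its standard error for each member, challenge on the left and loss of Tim4 on the right; filled points had an adjusted p under 0.05 in edgeR. Filled points occur only for challenge, 7 in WT and 6 in Tim4KO, and Itgb3 is the lone member called lower.

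Of the 16 other integrin chains examined, 13 were tested, and only Itgb7, Itga5 and Itga9 had at least 219 counts in each library. Itgb7, the beta chain that pairs with alpha4 or alphaE, was the most abundant, at 104 CPM per kb, well above Itga4 at 12.3, while Itgae (alphaE) held only 2 to 26 counts. Itgb7 measured 154, 148 and 158 CPM in WT naive and 225, 341 and 427 CPM in WT ID8, against 264, 203 and 163 CPM in Tim4KO naive and 452, 465 and 446 CPM in Tim4KO ID8. It rose by 1.11 (SE 0.20, adjusted p = 0.00106, edgeR) in WT and by 1.12 (SE 0.20, adjusted p = 0.00201, edgeR) in Tim4KO on the log2 scale. Itga5, the fibronectin receptor chain, rose by 1.11 (SE 0.12, adjusted p = 2.58e-05, edgeR) in WT and by 0.56 (SE 0.12, adjusted p = 0.00601, edgeR) in Tim4KO, where the call was lost without Tim4KO naive 3 (adjusted p = 0.0520). Itga9 was not called, at 0.63 (adjusted p = 0.103) in WT and -0.22 (adjusted p = 0.643) in Tim4KO. Itga7, the only other chain past a mean of 50 counts, had values of 0.10 and 0.69 and was not called. Itga8 and Itga1 were called lower in WT at no more than 55 counts in any library. Of the 13, 2 were called higher and 2 lower in WT, and 2 and 0 in Tim4KO. Over all tested genes 19.5% were called higher and 12.3% lower in WT, and 11.5% and 5.06% in Tim4KO. The median log2 fold change of the 13 was -1.10 in WT and -0.42 in Tim4KO. None of them was called between the genotypes, where 0.0439% of all tested genes were in naive and 0.0565% in ID8 cells.

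Among 21 genes of integrin activation, 6 were called higher and 4 lower in WT and 3 and 4 in Tim4KO, with a median log2 fold change of 0.09 and 0.03. Over all tested genes 19.5% were called higher and 12.3% lower in WT, and 11.5% and 5.06% in Tim4KO. Flna, filamin A, which binds beta tails and actin, rose by 0.88 in WT and by 1.0 in Tim4KO. Fermt3, the kindlin of blood cells, rose by 0.49 and by 0.52, and Rasgrp3, an exchange factor for Rap1, fell by 1.17 in WT and by 0.82 in Tim4KO. Rasgrp4, of the same family, fell by 0.67 in WT, and Cytip, a regulator of LFA-1 adhesion, fell by 0.71 in Tim4KO. Fermt3 was not called in WT with upper-quartile scaling, the 2 groups alone, the background covariate or without WT naive 1, nor in Tim4KO without Tim4KO naive 2 or 3 or Tim4KO ID8 1 or 2 (adjusted p up to 0.224 and 0.0927). Rasgrp4 was not called with the covariate or without WT ID8 2 (adjusted p up to 0.116). In the other genotype Rasgrp4 and Cytip were also called lower (-0.57 in Tim4KO and -0.42 in WT), and those calls were each lost in most fits that left out a library.

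Of 32 genes of the adhesion complex and its signalling, 30 were tested, and 9 were higher and 0 lower in WT and 3 higher and 0 lower in Tim4KO (median 0.21 and 0.11). Over all tested genes 31.8% were called in WT, 19.5% higher and 12.3% lower. In Tim4KO 16.6% were called, 11.5% higher and 5.06% lower. Actn4, the alpha-actinin that ties integrins to actin, rose by 0.96 in WT and by 0.86 in Tim4KO. Elmo1, which with Dock proteins drives engulfment, rose by 0.57 and 0.49. Ptk2 (focal adhesion kinase) rose by 0.58 in WT. Elmo2 rose by 0.60 in Tim4KO and by 0.53 in WT. Ptk2 lost its call with upper-quartile scaling (adjusted p = 0.0668), Elmo1 in Tim4KO without Tim4KO naive 3 or Tim4KO ID8 1 (adjusted p up to 0.0527), and Elmo2 in Tim4KO without Tim4KO naive 2 or 3 or Tim4KO ID8 1 or 2 (adjusted p up to 0.121). The WT call of Elmo2 was lost with upper-quartile scaling, the 2 groups alone, the covariate, and without WT naive 1 or 3 or WT ID8 2 (adjusted p up to 0.236).

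Of 38 ligands and bridging proteins, 29 were tested, with 9 higher and 5 lower in WT and 7 and 2 in Tim4KO (median 0.22 and 0.07), where 31.8% and 16.6% of all tested genes were called. Mfge8, which links dying cells to alphavbeta3 and alphavbeta5, fell from 72.8 ± 11.6 to 26.6 ± 9.15 CPM in WT and from 71.4 ± 1.72 to 23.5 ± 1.57 CPM in Tim4KO (SD, n = 3). Its log2 fold changes were -1.44 (SE 0.19, adjusted p = 9.46e-05, edgeR) and -1.60 (SE 0.19, adjusted p = 9.26e-05, edgeR). Edil3, or Del-1, which also binds alphav integrins and phosphatidylserine, fell by 1.31 in WT and by 1.45 in Tim4KO. Adam8, a membrane protease with a disintegrin domain, rose by 2.21 and by 2.06, and F10, coagulation factor X, a ligand of Mac-1, rose by 1.33 and by 0.90. Spp1, osteopontin, a ligand of alphav integrins, was singled out after its values were seen. It measured 0.978 to 2.07 CPM in naive and 32.2 to 77.5 CPM in challenged WT cells, against 0.410 to 2.53 and 7.69 to 19.8 CPM in Tim4KO cells. It rose by 5.23 (SE 0.64, adjusted p = 0.000322, edgeR) in WT and by 3.09 (SE 0.63, adjusted p = 0.00932, edgeR) in Tim4KO, where the call was lost without Tim4KO naive 2 (adjusted p = 0.0556). The ID8 groups did not overlap for Spp1, but the genotype difference there was not called (-2.30, SE 0.53, adjusted p = 0.176, edgeR). It was called by DESeq2 (adjusted p = 0.0196), limma voom (0.0321), with the background covariate (0.0211) and without WT ID8 3 (-2.62, adjusted p = 0.0188), and its adjusted p reached 0.704 with another library left out.

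Of 16 membrane partners of integrins, 5 were higher and 1 lower in each genotype (median 0.02 and 0.05), where 31.8% of all tested genes were called in WT and 16.6% in Tim4KO. Cd63, a tetraspanin, rose by 1.50 in WT and by 1.57 in Tim4KO. Plaur, the urokinase receptor that associates with Mac-1, rose by 1.09 and 0.88, and Slc3a2, the CD98 heavy chain that binds beta1 tails, by 1.19 and 0.86. Cd44, the hyaluronan receptor, rose by 1.47 in WT, and the tetraspanin Cd82 fell by 1.0 in Tim4KO. Cd44 was also called in Tim4KO (0.72) and Cd82 in WT (-0.82). Cd44 lost its Tim4KO call with upper-quartile scaling and without Tim4KO naive 2 or Tim4KO ID8 1 or 3 (adjusted p up to 0.115). No gene of these 4 lists was called between the genotypes in naive or ID8 cells, where 0.0439% and 0.0565% of all tested genes were.

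Over the 12 libraries, the genes whose log2 level ran most like each member were sought among 9696 genes, as a description of libraries that share a challenge contrast. Itgb3 ran with Nat8l, Pdcd4 and Mturn (Pearson r from 0.982 to 0.989). Itgb1 ran with Acly, Ap3b1 and Sdha (0.980 to 0.981), and Itgb2 with Tmem109, Sdha and Hadha (0.976 to 0.978). Itgam ran with Abl2, Rrbp1 and Rpap1 (0.955 to 0.959), and Itgal with Lman2l and Pi4k2b (0.964 and 0.951). Itgav ran with Slc39a6 and Tm9sf4 (0.966 and 0.962), and Itgb5 with Xxylt1, Homer3 and Mfn2 (0.948 to 0.963). For the chains that challenge did not call, Itga6 ran with Hmbox1, Plcg1 and Ttc17 (0.921 to 0.934) and Itga4 with Epb41, Pot1b and Pik3c2a (0.889 to 0.920). Among the members themselves, Itgam had r = 0.84 with Itgb2 and 0.83 with Itgb1, and Itgb3 had r = -0.80 with both Itgav and Itgb1.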

How the data were processed

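Large peritoneal macrophages of 4 groups, 3 libraries each, were profiled by RNA-seq (RNeasy micro kit and SMART-Seq mRNA LP kit, per the labels' protocols). The authors deposited raw counts of reads per Ensembl gene for 57010 genes, and all values are integers, with totals that differ between libraries. The submitters' processing notes name FastQC and STAR 2.5 and both mm10 and GRCm39. The counting program and its handling of strand are not given in the sources used here, and because the build is unclear no coordinates are given except those of the RefSeq promoters. Each column was matched to 1 library by its name, and 0 were left over. GENCODE vM21 gave names (52081 genes) and exonic lengths.

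edgeR 4.0.16 in R 4.3.3 was run on the deposited counts with filterByExpr (15943 genes, which hold 99.1% to 99.9% of counts), TMM scaling and 1 robust quasi-likelihood model of the 4 groups, with 8 residual degrees of freedom. F tests, two-sided, covered 5 comparisons, and a gene was called when its p, adjusted by Benjamini-Hochberg across the tested genes, was under 0.05. Each SE was taken from the log2 fold change and its F value. CPM values use the library sizes and TMM factors of the tested genes. A count of 3, the lowest told from 0, is 0.129 to 0.408 CPM, and covers counting error only. Ratios and levels per length were not tested.

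All members are named. From each further list the text names up to 4 called genes per challenge comparison with the smallest p and a mean count of at least 50, other integrin chains past that mean, and for each member the 3 genes of highest r of log2(CPM + 1). Some genes that this rule selects are not reported here. The members and lists were chosen with earlier results of these data known. Alternatives were RLE and upper-quartile scaling, no filter, DESeq2 1.42.0, voom of limma 3.58.1, only the 2 groups compared, a replicate block, log2 background as a covariate (1714 olfactory and vomeronasal genes of at most 1 CPM on average) and each library left out. The fit was tested on simulated data. No 2 libraries of a group agreed within sampling noise.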

Additional observations from a re-analysis of the deposited data

How the results depend on the processing

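No called member changed sign under any setting run. The members called were 7 in WT challenge, 5 of them with upper-quartile scaling, the 2 groups alone or the background covariate, and 6 to 7 when 1 library was left out. In Tim4KO challenge they were 6, 4 with RLE or upper-quartile scaling, 5 with limma voom or the background covariate, and 2 to 6 with 1 library left out. Between genotypes in ID8 cells 1 member (Itgb3) was called without the filter on low counts and with the background covariate, and 0 to 1 with 1 library left out. The interaction called 0 to 1 member with 1 library left out, Itgb3 without WT ID8 3, and no member was called between naive genotypes under any setting.

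Calls over all genes moved more. Between naive genotypes the 7 became 59 without the filter, 42 with DESeq2, 4 with limma voom, 2 with the 2 groups alone, and 1 to 29 with 1 library left out. In ID8 cells the 9 became 264 without the filter, 227 with DESeq2, 219 with the background covariate and 1 to 997 with 1 library left out, the most without WT ID8 3. The interaction went from 0 to 73 without the filter, 4 with DESeq2, 2 with the covariate and 0 to 368 with 1 library left out, again the most without WT ID8 3. WT challenge went from 5067 to 3102 with the 2 groups alone and 3362 to 7230 with 1 library left out, and Tim4KO challenge from 2642 to 1222 to 3595. The cause was not tested.

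Whether equal replicate numbers mark paired libraries is not settled. Same-numbered libraries had correlations of their deviations from -0.10 to 0.35 (median 0.08), with 7 of 18 pairs over 0.1. Libraries of different number had correlations from -0.38 to 0.32 (median -0.03), with 6 of 36 pairs over 0.1. Of the 12 libraries, 4 ran best with their own number. The replicate block gave 7, 6, 0, 0 and 0 called members for WT challenge, Tim4KO challenge, naive genotype, ID8 genotype and interaction, and over all genes 4619, 2562, 3, 14 and 0. Depth limits Itgax, at 1 to 22 counts, which the 2-group fit did not keep in 2 comparisons (that fit also gives no interaction).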
